A study of Mus musculus with 6 samples.

Results

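The genes described here are the 3 HIF prolyl hydroxylases (Egln1, Egln2 and Egln3), the asparaginyl hydroxylase Hif1an, the ubiquitin ligase subunit Vhl, the 3 HIF alpha subunits (Hif1a, Epas1 and Hif3a) and the beta subunits Arnt and Arnt2. They were taken by symbol from the deposited table, which holds all 10 of them among its 25631 genes. RNA was measured in oocytes punctured from large antral follicles of 14-month-old female ICR mice that had been given equine chorionic gonadotropin, which stimulates follicle growth. The aminophylline group (n = 3 libraries) drank water with 4.0 mM aminophylline, a theophylline derivative that inhibits phosphodiesterases, for 1 week and plain water for another 3 weeks. The control group (n = 3 libraries), labelled aged and untreated, received plain water throughout. How many mice or oocytes entered each library is not given, nor whether the libraries of a group came from separate mice, so the p-values below measure the spread between these libraries, which may be technical.

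Hypoxia-inducible factors (HIFs) are transcription factors made of an oxygen-sensitive alpha subunit and a stable beta subunit. In the presence of oxygen the EGLN enzymes hydroxylate prolines of the alpha subunit, VHL then binds it and marks it for the proteasome, and HIF1AN hydroxylates an asparagine and thereby blocks the binding of coactivators. This control acts on protein, so the mRNA levels given here do not show how much HIF protein was present or active. The oocyte is surrounded by granulosa cells without blood vessels, so oxygen reaches it by diffusion.

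Reads were recovered as whole numbers from the FPKM (fragments scaled to transcript length and library size). The library sizes behind the FPKM were 14112341 (control 2) to 33641283 (control 1) reads. Listed genes held 99.565% to 99.627% of these, so the number of reads sequenced may be larger and is not known. The libraries carried the label's cell type. All 10 oocyte markers were above an FPKM of 1 in at least 3 libraries, and their sum was 10216 to 15759. The summed FPKM was 16 to 23.9 for 10 granulosa markers and 5.94 to 9.32 for 8 endothelial markers, 6 of which never reached an FPKM of 1. It was 2.32 to 4.85 for 9 theca and stroma markers and 0.0486 to 0.585 for 5 erythrocyte markers. For 9 macrophage markers it was 239 in control 1 and 81.1 to 102 in the other libraries. C1qb made up most of the sum outside control 1, with an FPKM of 72.3 (control 1) to 99.8. Lyz2 (66.4), Fcer1g (57.6), Tyrobp (20.3) and C1qc (14.8) were high in control 1 and at 0 to 0.573 in the other libraries. In such bulk samples, fewer cells of a type and less RNA per cell cannot be told apart.

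Egln1 and Hif1a were the abundant genes, and the other 8 were far lower (plot of FPKM by gene). The mean FPKM over the 6 libraries was 19.7 for Egln1 and 17.1 for Hif1a, and the ranges of this pair overlapped, with Egln1 above Hif1a in 5 of 6 libraries. Below a clear gap came Hif1an (mean FPKM 2.92), Egln2 (1.97) and Arnt (1.68), whose ranges overlapped from each to the next. Below another gap came Hif3a (0.371) and Vhl (0.321), whose ranges overlapped. Epas1 (0.0608), Egln3 (0.0265) and Arnt2 (0.0166) were at or near 0. The transcripts of the oxygen-sensing arm were mainly 1 prolyl hydroxylase and 1 alpha subunit. Egln1 made up 85.4% to 97.3% of the summed FPKM of the 3 Egln genes, and Hif1a 96.9% to 98% of that of the 3 alpha subunits.

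**Figure D1:**
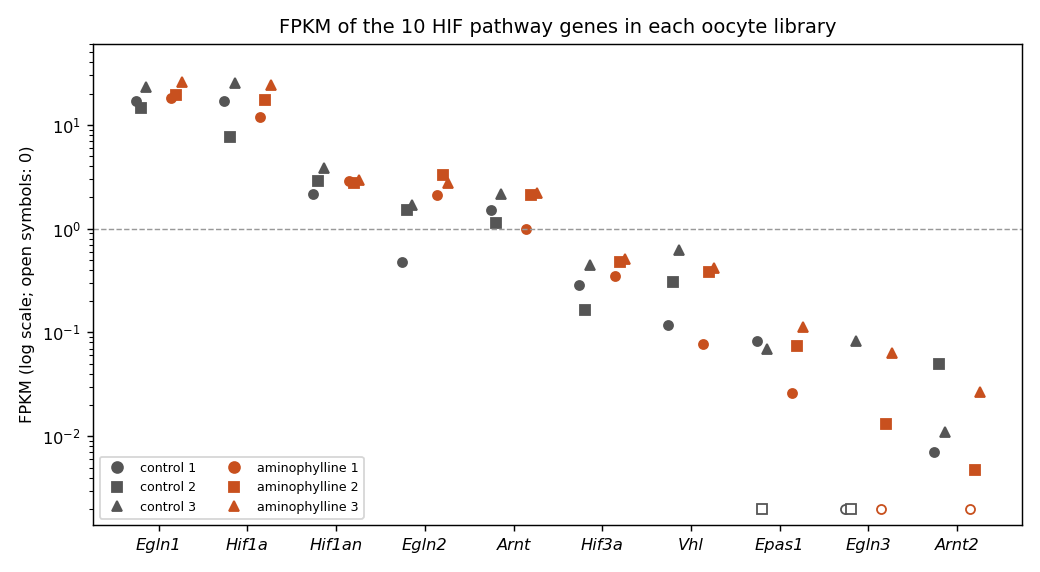
FPKM (log axis) of the 10 genes in each library, in order of their mean; gray symbols are control and orange symbols aminophylline libraries, the shape gives the library number, open symbols stand for a value of 0, and the dashed line marks an FPKM of 1. Egln1 and Hif1a lie at 7.57 to 25.9, and Egln2 is the gene whose aminophylline values (2.09 to 3.30) all lie above its control values (0.475 to 1.70).

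Egln2, also called PHD1, is a prolyl hydroxylase of the nucleus. It lies on GRCm38 at chr7:27158658-27166802, minus strand, and its last bases overlap those of Cyp2t4 on the plus strand, which had at most an FPKM of 0.988. Whether counting used the strand is not given in the sources used here, so reads in the overlap could not be assigned to either gene. In control libraries 1, 2 and 3 the FPKM of Egln2 was 0.475, 1.51 and 1.70, from 42, 56 and 142 reads. In aminophylline libraries 1, 2 and 3 it was 2.09, 3.30 and 2.76, from 155, 215 and 222 reads. All aminophylline libraries were above all control libraries, though control 3 and aminophylline 1 lay close together. The group means were 1.23 ± 0.659 (SD, n = 3) and 2.72 ± 0.608 (SD, n = 3), a ratio of 2.21. On the log2(FPKM + 1) scale, which understates the change of such a low gene, the difference was 0.77 (standard error 0.262, 95% interval 0.20 to 1.35).

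That difference passed limma's test at an unadjusted p under 0.05 and did not pass after adjustment over the 10340 genes tested (limma adjusted p = 0.676). For a single gene, the exact permutation test of 3 libraries against 3 cannot go below p = 0.1. Egln2 was 1 of the 456 genes with a higher level at an unadjusted p under 0.05, 4.41% of all genes tested, while 2.84% were lower and 0% passed after adjustment. With the replicate number as a block, 9.88% of all tested genes were higher and 4.3% lower before adjustment, and 47 genes (0.455%) passed after it. Egln2 was not among these 47 (limma adjusted p = 0.0873 with the block). Over all alternatives the limma adjusted p ranged from 0.0873 to 0.999. The same-numbered libraries differed by 1.07, 0.78 and 0.48 on the log2(FPKM + 1) scale. Their shared direction adds nothing, since without overlap between the groups any pairing gives it. Control library 1 carried much of the size: without it the difference was 0.50 and did not pass (limma adjusted p = 0.984). Without aminophylline library 2 it was 0.66 and did not pass before adjustment. It did not pass before adjustment in the unmoderated linear model either, the counterpart of the unpaired test that the study names. With a pseudocount of 0.1 the log2 difference was 1.23, and voom on the recovered reads gave 1.38. Control 1 was also the library with the highest macrophage marker sum, and the part of that in the result was not tested.

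Egln1, also called PHD2, is the main oxygen-sensing hydroxylase of most tissues, and Egln3, also called PHD3, is the paralog that hypoxia induces most strongly in many cells. The 3 paralogs stood at very different levels in these oocytes, so the 250 bases before the outermost start of each gene are shown, from RefSeq on GRCm38.p6, 5′ to 3′ on the gene's strand. The windows are chr8:124949255-124949504 for Egln1, chr7:27166803-27167052 for Egln2 and chr12:54203875-54204124 for Egln3, all on the minus strand. Capitals mark the core of the hypoxia response element, searched as ACGTG or GCGTG on both strands, with overlapping matches joined into 1 stretch.
Egln1: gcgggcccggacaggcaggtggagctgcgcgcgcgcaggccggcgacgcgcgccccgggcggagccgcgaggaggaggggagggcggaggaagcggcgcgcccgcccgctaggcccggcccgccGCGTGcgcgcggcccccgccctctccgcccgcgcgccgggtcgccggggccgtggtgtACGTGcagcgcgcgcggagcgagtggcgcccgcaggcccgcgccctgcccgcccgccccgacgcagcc
Egln2: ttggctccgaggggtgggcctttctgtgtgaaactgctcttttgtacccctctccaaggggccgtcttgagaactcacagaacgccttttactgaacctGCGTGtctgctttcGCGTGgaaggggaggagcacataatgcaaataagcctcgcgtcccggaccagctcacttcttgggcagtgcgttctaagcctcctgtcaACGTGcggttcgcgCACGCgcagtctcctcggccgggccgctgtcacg
Egln3: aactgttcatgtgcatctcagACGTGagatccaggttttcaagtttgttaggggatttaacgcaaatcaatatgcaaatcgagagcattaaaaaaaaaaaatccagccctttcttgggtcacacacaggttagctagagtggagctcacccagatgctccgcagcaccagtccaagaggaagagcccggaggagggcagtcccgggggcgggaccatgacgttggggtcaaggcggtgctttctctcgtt
RefSeq gives Egln2 a further start, whose window (chr7:27165729-27165978) held 1 such stretch and 4 CpG dinucleotides and is not printed. The printed window of Egln2 held 4 such stretches, that of Egln1 2 and that of Egln3 1. Of all 32851 windows, 1.42% held at least 4 and 38.6% held at least 1. The searched core contains a CpG, and these shares are not matched for the CpG number of a window. Of the 9 members with a window in the table, 6 had a match and 3 (Hif1an, Vhl and Arnt2) had none. Egln1 had 51 CpG dinucleotides, a number reached by 0.067% of all windows. The printed window of Egln2 had 20 (reached by 17.9%) and Egln3 10 (37.8%), beside a median of 6 over all windows. The CpG number did not follow the level throughout, since Arnt2, near 0 in these libraries, had 31. A match describes the letters of the window and says nothing of binding.

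The FPKM of Egln1 (chr8:124908587-124949254) was 17, 14.4 and 23.3 in the controls, against 18.2, 19.4 and 25.9 after aminophylline. The groups overlapped, and library 3 was the highest in both. The log2 difference was 0.21 (standard error 0.223, 95% interval -0.28 to 0.71, limma adjusted p = 0.797). Without control library 3, the aminophylline values of Egln1 no longer overlapped the control values. Egln3 (chr12:54178981-54203874) had 0, 0 and 8 reads in the controls, against 0, 1 and 6 after aminophylline. With a limit of 3 reads, which stands for an FPKM of 0.029 to 0.0692 in these libraries, it was measurable in library 3 of each group and in no other library. Within the family, Egln2 made up 2.71%, 9.48% and 6.78% of the summed FPKM in the controls, against 10.3%, 14.5% and 9.62% after aminophylline, and the lowest aminophylline share lay just above the highest control share.

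Hif1an, the asparaginyl hydroxylase also called FIH, had an FPKM of 2.15, 2.90 and 3.87 in the control and of 2.87, 2.77 and 2.96 in the aminophylline libraries. The aminophylline values lay inside the control range, and their spread (SD 0.0957) was narrower than that of the controls (SD 0.862). How often the aminophylline spread was the narrower over all tested genes was not counted. The log2 difference of Hif1an was -0.01 (standard error 0.225, 95% interval -0.51 to 0.48, limma adjusted p = 0.990). Vhl, the substrate receptor of the ligase, had 11, 12 and 55 reads in the control and 6, 26 and 35 reads in the aminophylline libraries. Its FPKM was 0.119, 0.308 and 0.627 against 0.0771, 0.381 and 0.415, so the groups overlapped and the libraries of each group differed more than 5-fold (5.29 and 5.38). Vhl never reached an FPKM of 1 and was not in the main test. In the fit without a filter its log2 difference was -0.06 (limma adjusted p = 0.931).

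Hif1a, the alpha subunit of HIF-1, varied more between libraries of a group than between the groups. Its FPKM was 16.8, 7.57 and 25.1 in the controls, against 11.9, 17.2 and 24.1 after aminophylline. The highest control was 3.32-fold above the lowest, the highest aminophylline library 2.03-fold above its lowest, and the groups overlapped fully. The log2 difference was 0.19 (standard error 0.373, 95% interval -0.63 to 1.01, limma adjusted p = 0.903), an interval that leaves room for a change of about the size seen in Egln2. Without control library 2 the difference was -0.25, and without aminophylline library 3 it was -0.05. Between same-numbered libraries it was -0.47, 1.09 and -0.05, in both directions.

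The other alpha subunits were scarce. Hif3a, whose products include a dominant-negative inhibitor of HIF, had 71, 17 and 104 reads in the control and 73, 86 and 115 reads in the aminophylline libraries, an FPKM of 0.287, 0.164 and 0.444 against 0.351, 0.472 and 0.511. The groups overlapped, and each aminophylline library was above the control of the same number. Epas1, which encodes HIF-2 alpha and is best known from endothelium, had 15, 0 and 12 reads against 4, 10 and 19 reads. Its 0 in control 2 allows an FPKM of up to 0.039 there. Control 2 also had the lowest endothelial marker sum (5.94), most of it from Pecam1 (4.97), and its part in the 0 of Epas1 was not tested. The markers were mixed: Kdr (0.0361) and Tek (0.62) had their lowest control value in control 2, and Flt1 (0.239) had its highest. Neither gene reached an FPKM of 1.

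Arnt, the beta subunit that pairs with the alpha subunits and with the aryl hydrocarbon receptor, had an FPKM of 1.5, 1.14 and 2.14 in the control and of 0.988, 2.11 and 2.20 in the aminophylline libraries. The groups overlapped, with aminophylline 1 the lowest of all. The log2 difference was 0.08 (standard error 0.246, 95% interval -0.46 to 0.62, limma adjusted p = 0.944), and it was -0.04 with quantile normalization. Hif1a stood 6.66-fold to 12-fold above Arnt in FPKM. Arnt2, a beta subunit best known from neurons, had 2, 6 and 3 reads against 0, 1 and 7 reads, and only control 2 and aminophylline 3 were above the limit of 3 reads.

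**Figure D2:**
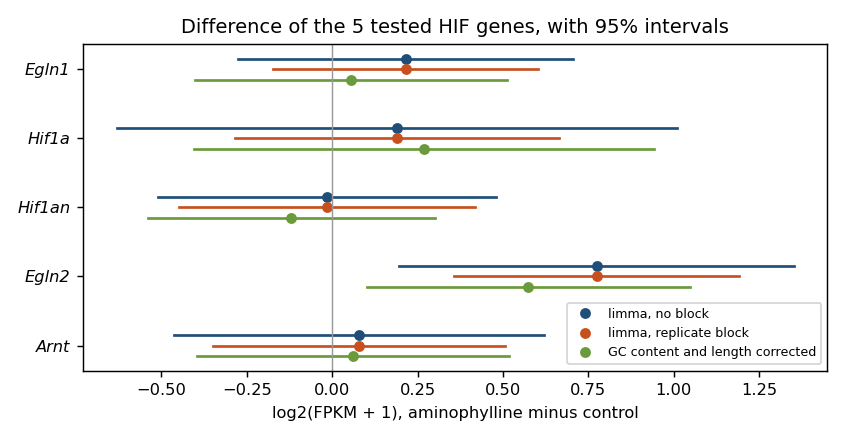
Difference between the groups on the log2(FPKM + 1) scale (aminophylline minus control) for the 5 genes tested; points are estimates from 3 libraries against 3 and bars their 95% intervals, in limma without a block, with the replicate block, and after correction for GC content and length. The interval of Egln2 lies above 0 in all 3 fits and the other 4 intervals include 0.

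Of the 10 genes, 5 (Egln1, Egln2, Hif1an, Hif1a and Arnt) reached an FPKM of 1 in 3 or more libraries and were in the main test. At an unadjusted limma p under 0.05, 1 was higher (Egln2), 0 were lower and 4 did not pass, and none of the 5 passed after limma adjustment, with or without the block. The count was 0 without control library 1 and 0 without aminophylline library 2, where 3.57% and 3.18% of all tested genes passed, beside 7.25% with all libraries. The values did not overlap between the groups for 1 of the 5 (Egln2), where they did so for 7.51% of all tested genes in the higher and 4.96% in the lower direction. That count was 2 (Egln1 and Egln2) without control library 3, where non-overlap was also more frequent over all tested genes, at 23.6% in the higher and 7.52% in the lower direction. The median log2 difference of the 5 genes was 0.19, beside 0.095 for all genes tested.

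The genes tended to share the order of the libraries within a group. Of the 7 genes above 0 in every library, all 7 had their highest control value in control 3 and 6 had their highest aminophylline value in aminophylline 3, the exception being Egln2. Over all tested genes, control 3 was the highest control for 51.2% and aminophylline 3 the highest aminophylline library for 46.5%. Aminophylline 1 was the lowest of its group for 6 of the 7 genes and for 47.9% of all tested genes.

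**Figure D3:**
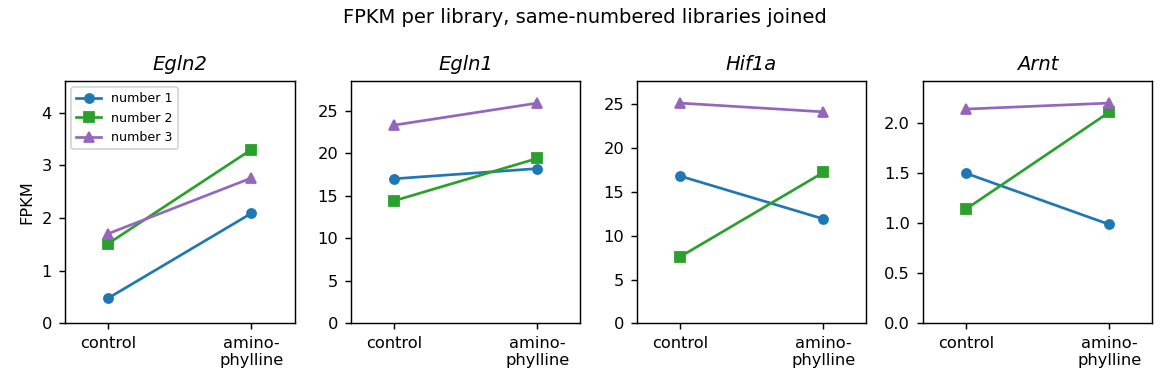
FPKM (linear axis from 0) of Egln2, Egln1, Hif1a and Arnt in each library, with control and aminophylline libraries of the same number joined by a line. All 3 lines rise for Egln2 and Egln1, while those of Hif1a and Arnt go in both directions and library 3 is highest in the control group for all 4 genes.

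The profiles of Egln2 and Hif1a over the libraries were compared with those of all 10339 other tested genes by the Pearson correlation of log2(FPKM + 1) over the 6 libraries, as a description. Closest to Egln2 were Rpl8 (r = 0.993), Atp13a1 (0.992) and Nosip (0.990). Closest to Hif1a were Bmpr2 (r = 0.9999), Elmod2 (0.999) and Pcm1 (0.998). Among so many genes and so few libraries, high values are common. The GC content of the transcripts was 62.2% for Egln2 and 57.1% to 58.3% for its 3 closest genes. It was 41.3% for Hif1a and 41% to 41.3% for its 3 closest genes, with a median of 48.5% over the tested genes. Whether GC content went along with the library pattern over all tested genes was not tested. After correction of each library for GC content and length, the log2 difference was 0.57 for Egln2 (limma adjusted p = 0.680) and 0.27 for Hif1a (limma adjusted p = 0.824). With the replicate block in that fit the limma adjusted p of Egln2 was 0.232. The corrected difference was 0.056 for Egln1, where it was 0.21 before correction, -0.12 for Hif1an and 0.061 for Arnt.

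The partners and regulators of the HIF subunits, a list of 27 genes, were mostly expressed. Some components of the ubiquitin ligase that VHL recruits were far above Vhl itself (mean FPKM 0.321). The cullin of that ligase, Cul2, was much lower than those, with a mean FPKM of 3.7 over the 6 libraries. Nedd8, the modifier that activates the ligase, had an FPKM of 496 to 852 in the control and 686 to 887 in the aminophylline libraries. Eloc, the elongin that binds VHL, had 477 to 566 and 569 to 632, and Rbx1, the RING subunit, 352 to 635 and 466 to 636. None of these 3 passed limma's test before adjustment, and Nedd8 did so with the replicate block (limma adjusted p = 0.319). Of the 22 genes tested, 3 were higher, 1 was lower and 18 did not pass at an unadjusted p, beside 4.41% higher and 2.84% lower over all tested genes, with 0 after adjustment. The median log2 difference was 0.21, beside 0.095 for all tested genes.

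The 3 higher genes do different things. Os9, a lectin of the endoplasmic reticulum that has been described to bind HIF1A and the hydroxylases, had an FPKM of 6.93, 7.85 and 11.5 in the control and 13.2, 14 and 15.5 in the aminophylline libraries, without overlap (log2 difference 0.67, limma adjusted p = 0.664). Pkm, pyruvate kinase, of which an isoform has been described as a HIF coactivator, had 9.26, 11.7 and 18.9 against 21.9, 18.3 and 24.4 (log2 difference 0.70, limma adjusted p = 0.682). Hsp90ab1, a chaperone that holds the alpha subunits, had 30.2, 49.2 and 60.3 against 62.9, 55.2 and 87.2 (log2 difference 0.57, limma adjusted p = 0.684). Vbp1, the prefoldin subunit named for its binding to VHL, was the lower gene, with 218, 90.6 and 226 against 104, 85.2 and 117, and its log2 value fell by 0.70 (limma adjusted p = 0.682). The values of Pkm, Hsp90ab1 and Vbp1 overlapped between the groups. The count of 4 genes passing was 1 without control library 1 and 8 without control library 2. The share of all tested genes that passed moved the same way, from 7.25% to 3.57% and 15.6%.

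Of the other genes of the basic helix-loop-helix PAS family, to which the HIF subunits belong, and their coactivators, 16 of a list of 17 were in the table and 9 were tested. None passed limma's test at an unadjusted p, with 5 positive and 4 negative differences and a median of 0.062. The count was 1 without control library 2, where 15.6% of all tested genes passed. The most abundant was Per3, a period gene, with an FPKM of 23 to 31.6 in the control and 21.4 to 25.5 in the aminophylline libraries. Ncoa3, a steroid receptor coactivator, had 12.2 to 20.9 and 13.8 to 20.7. Arntl2, the paralog of the clock subunit BMAL1, had 7.63 to 12.4 and 7.24 to 8.06.

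Known HIF target genes, 38 of a list of 39 in the table, ranged in mean FPKM from near 0 to 262.5 (Mif). The main test took in 20 of the 38. The others were too low for it, among them Vegfa (FPKM at most 0.0499) and Ldha (at most 0.506). Mif, a cytokine gene, had the highest FPKM, 171 to 391 in the control and 224 to 282 in the aminophylline libraries. Higd1a, a mitochondrial stress protein gene, had 101 to 144 and 122 to 142, and Car9, a carbonic anhydrase used as a marker of hypoxia, had 89.5 to 104 and 74.8 to 90.6. Of the 20 genes, 1 was higher, 1 was lower and 18 did not pass limma's test at an unadjusted p, near the 4.41% and 2.84% of all tested genes. They had a median log2 difference of 0.084 beside 0.095 for all tested genes. Tpi1, triosephosphate isomerase of glycolysis, was higher, with 36.8, 42.9 and 52.5 against 55.3, 66.1 and 68.8 (log2 difference 0.52, limma adjusted p = 0.681), without overlap. Bnip3, a mitophagy receptor, was lower, with 89.4, 40.4 and 60.7 against 38.2, 33.8 and 40.8, and its log2 value fell by 0.67 (limma adjusted p = 0.682), with control 2 inside the aminophylline range. The count of 2 was 0 without control library 1, 3 without control library 2, 0 without aminophylline library 2 and 1 without aminophylline library 3, where 3.57%, 15.6%, 3.18% and 4.14% of all tested genes passed. How the authors' counting treated reads shared with near-identical copies, such as the processed pseudogenes of glycolytic genes, is not given in the sources used here. A wider set, added after the data had been seen, was the 107 genes that the deposited annotation places in the HIF-1 signaling pathway. Of these 55 were tested, and 3 were higher and 2 lower before adjustment, near the shares over all tested genes, with 0 after limma adjustment. With the replicate block 7 were higher and 2 lower, beside 9.88% and 4.3% of all tested genes, and the median log2 difference was 0.15.

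**Figure D4:**
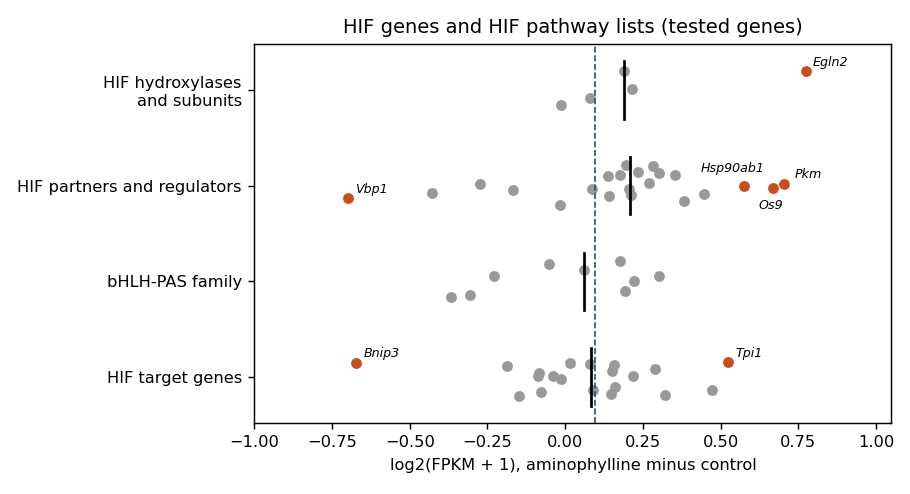
Difference between the groups on the log2(FPKM + 1) scale for each tested gene of the HIF hydroxylases and subunits (5), partners and regulators (22), the PAS family (9) and HIF targets (20); orange points have an unadjusted limma p under 0.05, black bars are the medians of each list and the dashed line is the median of all tested genes, 0.095. The medians are 0.19, 0.21, 0.062 and 0.084 in this order.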

How the data were processed

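The authors deposited FPKM values per gene for 6 oocyte libraries, 1 column per library, with no scaling between libraries beyond that of FPKM to library size. The submitters' processing notes name the genome build GRCm38 (mm10), while the aligner, counter and annotation are not given in the sources used here. Groups and replicate numbers were taken from the labels. The members and gene lists were chosen with earlier results of these data known.

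Each gene's FPKM ratios between libraries gave whole reads (tolerance 0.0001) for 99.996% of the 22583 genes that were above 0 in 2 or more libraries. The limit of 3 reads covers counting error only. Genes reaching an FPKM of 1 in 3 or more libraries were tested with limma 3.58.1 in R 4.3.3 (moderated variance with a trend) on log2(FPKM + 1), two-sided, with Benjamini-Hochberg adjustment over all 10340 genes. Named genes were all members, and from each list the genes with an unadjusted p under 0.05 and the 3 with the highest mean FPKM. Cul2, Vegfa and Ldha were named outside this rule. The correlation of deviations from the group means was 0.138, 0.140 and 0.552 for same-numbered libraries, so the numbers were taken to pair the libraries. This pairing comes from the data, since no source states what a number shares. Differently numbered libraries were not compared, so the correlations cannot show that this pairing is better than another. Alternatives were a pseudocount of 0.1, no filter, quantile normalization, TPM (each library rescaled to the same sum), a minimum mean FPKM of 5, an unmoderated model, the replicate block, voom on recovered reads and leaving out each library. A correction for GC content and length, alone and with the block, was added after seeing the data (GC content from GENCODE transcripts, known for 90.2% of the tested genes). The fit was tried on simulated reads with 4-fold changes. Their spread was preset and not taken from these libraries, so the trial does not show how the fit performs at the spread seen here.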

Additional observations from a re-analysis of the deposited data

How the results depend on the processing

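The differences of the 5 tested genes were recomputed 77 times over all alternatives. In 66 of them the direction and the side of the threshold were as reported, in 3 Egln2 no longer passed, and in 8 the direction turned, in genes that did not pass. Egln2 kept its direction throughout, at 0.50 to 1.38, with an unadjusted p of 0.000777 to 0.0657 and an adjusted p of 0.0873 to 0.999. Egln1 ranged from 0.056, after correction for GC content and length, to 0.395, without control library 3. The direction turned for Arnt with quantile normalization (-0.0442), and with single libraries left out Arnt ranged from -0.0520 to 0.30, Hif1a from -0.2533 to 0.55 and Hif1an from -0.17 to 0.1437. With the replicate block 1 gene passed at an unadjusted p and 0 after adjustment, as without it. Over all 10340 genes the block raised the count before adjustment from 456 to 1022 higher and from 294 to 445 lower. The count after adjustment rose from 0 to 47. With the block and the correction for GC content and length together it was 3 of 9330 genes. Voom on recovered reads gave 0, in a fit without the block. Except for Nedd8 among the genes named, the block changed no call.

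The number of the 10 genes with an unadjusted p under 0.05, 1 in the main test, was 0 with a mean FPKM of at least 5, which leaves out Egln2, and 0 with the unmoderated model. With single libraries left out it was 0 to 1. The number without overlap was 0 with the mean FPKM of at least 5 and 1 to 2 with single libraries left out. For the partners, 4 in the main test, the count was 2 without a filter, 2 after rescaling to a common sum, 1 with the unmoderated model, 8 with the replicate block and the correction for GC content and length together, and 1 to 8 with single libraries left out. For the PAS family, 0 in the main test, it was 1 without a filter, 1 with quantile normalization and 0 to 1 with single libraries left out. For the targets, 2 in the main test, it was 1 without a filter, 1 with the unmoderated model and 0 to 3 with single libraries left out. The causes were not tested. Depth limits Egln3 and Arnt2, with at most 8 reads in any library, and Epas1 in control 2 (0 reads) and aminophylline 1 (4 reads).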
